A study of Mus musculus with 6 samples.

Results

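The genes described are the Hippo kinases Stk3, Stk4, Lats1 and Lats2, their substrates Yap1 and Wwtr1 (TAZ), and the TEAD transcription factors Tead1, Tead2, Tead3 and Tead4. For each gene the probe set whose only annotated symbol was that gene was taken, and where there were several, the brightest over the 6 arrays. This gave a value for 9 of the 10 genes, out of 19733 genes measured. Stk3 had no such probe set. The set was chosen by pathway, with an earlier result of these data known, namely the Cre minus EV decrease of Tead1, and the probe sets by their mean level. For this reason the Cre against EV differences of the 9 genes are given as a description, with no p-value.

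The 6 arrays came from mouse bone marrow pre-B cells with floxed Ppp2r1a alleles (Ppp2r1afl/fl), all of them transduced with BCR-ABL1, the fusion kinase of B cell acute lymphoblastic leukaemia. In 3 arrays the cells had also received Cre, to delete Ppp2r1a, the gene of a scaffold subunit of the phosphatase PP2A. In the other 3 the cells had received an empty vector (EV), and GEO's label calls these wild type although they carry the floxed alleles and BCR-ABL1. No array held Cre in cells without floxed alleles, so effects of Cre and of the deletion cannot be told apart. The time between transduction and harvest, the age of the mice and whether the repeats were separate cultures do not appear in the labels, so the spread between arrays may be technical.

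In the Hippo pathway, the MST kinases (Stk3 and Stk4) with their adaptor Sav1 phosphorylate and activate the LATS kinases, which act with the Mob1 proteins. LATS phosphorylates YAP and TAZ, and the phosphorylated proteins are held in the cytoplasm or degraded. Unphosphorylated YAP and TAZ enter the nucleus and bind TEAD factors, which bring them to DNA. PP2A enters the pathway through the STRIPAK complex, in which it dephosphorylates the MST kinases. The pathway acts chiefly through protein phosphorylation, which expression arrays do not measure. In lymphocytes MST1 (Stk4) is best known for roles in cell adhesion, migration and survival.

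Values are log2 expression levels after RMA, as deposited, in which every difference is relative to the other genes. Array medians lay between 5.22 and 5.27. No detection calls were used. As a guide to background, the 1209 probe sets of olfactory and vomeronasal receptors, genes of sensory neurons, had a median level of 2.85 and a 95th percentile of 4.51. Probe sets differ in affinity, so this comparison describes dimness and does not rank genes. Ppp2r1a read 7.115, 6.98 and 6.92 in Cre, against 9.06, 9.05 and 9.06 in EV, a Cre minus EV difference of -2.05 on the log2 scale. Its Cre levels still lay above the brightest receptor probe set, at 6.19, so they do not show that the transcript was absent. All 12 measured pre-B markers, of 13 listed, lay above that 95th percentile.

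Tead1, which binds the DNA element of YAP and TAZ targets, was lower in the Cre cells by more than the spread of either group. Its probe set (10556456, on chromosome 7) had levels of 5.20, 5.145 and 5.31 in Cre, against 7.53, 7.30 and 7.54 in EV. The groups did not overlap, and every Cre array lay about 2 log2 units under every EV array. The means were 5.22 ± 0.08 in Cre and 7.46 ± 0.14 in EV (SD, n = 3 each), a Cre minus EV difference of -2.24 (SE 0.09; 95% interval -2.44 to -2.03), or 4.72-fold lower. Counted from the largest decrease, Tead1 stood at place 12 among the 19733 genes. In a bulk sample, fewer cells with the transcript and less transcript per cell cannot be told apart.

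A second Tead1 probe set (10556442), which the choice of the brightest had left out, read 4.505, 4.78 and 4.997 in Cre, against 6.37, 6.54 and 6.29 in EV. Again the groups did not overlap. Its means were 4.76 ± 0.25 in Cre and 6.40 ± 0.13 in EV (SD, n = 3 each), and Cre minus EV was -1.64 (SE 0.13), or 3.12-fold lower. Both probe sets were therefore lower in Cre, by unequal amounts. The Cre mean of the brighter set was reached or passed by 1.41% of the receptor probe sets and that of the dimmer set by 3.14%, while no receptor probe set reached either EV mean. The Cre levels are thus near the upper end of the background range, where array values compress, and both fold differences may understate the change.

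**Figure D1:**
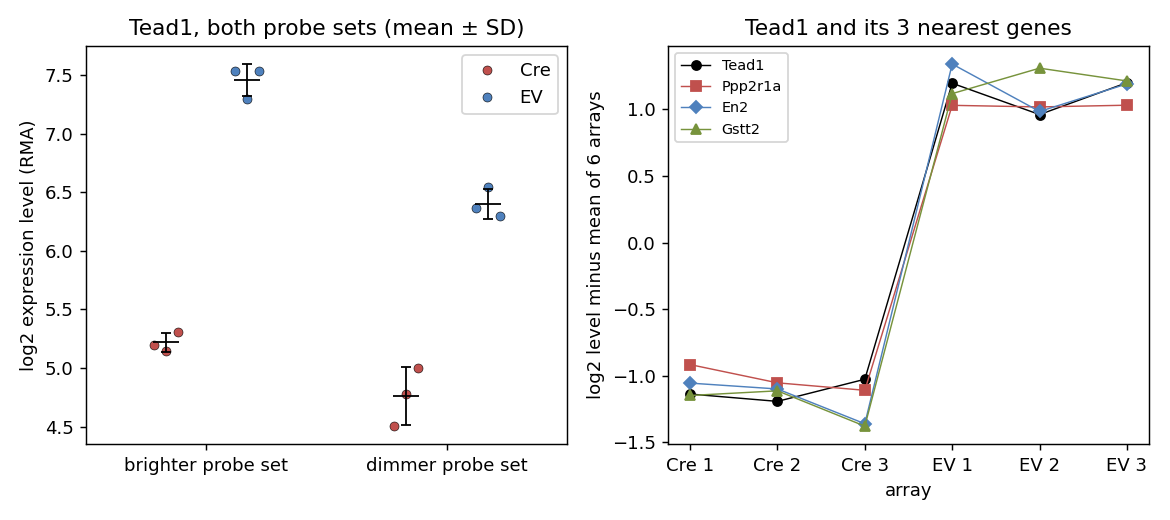
Left, the log2 level of Tead1 on each array for its brighter and dimmer probe set, with Cre left of EV and bars for the mean ± SD of 3 arrays. Right, levels minus the mean of 6 arrays for Tead1, Ppp2r1a, En2 and Gstt2, with lines joining the arrays of a gene only to guide the eye. In both probe sets the 3 Cre arrays lie under the 3 EV arrays, and the 4 genes in the right panel show the same low Cre and high EV arrays.

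The genes whose profile over the 6 arrays lay nearest to that of Tead1 were sought by the root mean square difference of levels centred on each gene's mean. They were Ppp2r1a (0.15 log2 units), the homeobox gene En2 (0.16) and Gstt2, a glutathione transferase (0.21). En2 read 5.41, 5.37 and 5.11 in Cre, against 7.81, 7.45 and 7.66 in EV. Gstt2 read 6.997, 7.03 and 6.77 in Cre, against 9.26, 9.45 and 9.36 in EV. With 2 groups of 3 arrays this measure finds genes with a group difference of like size and little else.

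Over all genes, limma's moderated test with Benjamini-Hochberg adjustment called 689 of 19733 genes at an adjusted p below 0.05, or 3.49%. By that rule 1 of the 9 genes was called, Tead1, and the other 8 were not. Since Tead1's decrease was known when the set was made, nothing is read from this count. The groups did not overlap for 2 of the 9, Tead1 and Tead2, against 22.5% of all genes. The median Cre minus EV was -0.007 over the 9 genes and -0.003 over all genes.

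None of the other TEAD factors was called. Tead2, which is active in early embryos, read 5.25, 5.14 and 5.29 in Cre, against 5.06, 5.11 and 4.86 in EV. The Cre arrays were all the higher, the gap between the nearest arrays of the groups was narrower than the spread within EV, and Cre minus EV was 0.22 (SE 0.09; 95% interval 0.02 to 0.42), opposite in sign to that of Tead1. Tead3 read 4.68, 4.55 and 4.74 in Cre, against 4.72, 4.85 and 4.76 in EV, which overlapped, with a difference of -0.12 (95% interval -0.30 to 0.05). Tead4, known for its part in trophectoderm and muscle, read 4.895, 4.885 and 4.895 in Cre, against 4.88, 4.91 and 4.91 in EV. Its difference was -0.01 (95% interval -0.14 to 0.13), the smallest of the 9.

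All 3 of these probe sets were dim, though their means over 6 arrays lay above the receptor 95th percentile of 4.51. Of the receptor probe sets, 1.57% were as bright as Tead2, 3.56% as bright as Tead3 and 2.56% as bright as Tead4. In the EV arrays Tead1 was the TEAD factor whose level no receptor probe set reached. Whether Tead2, Tead3 and Tead4 were transcribed at all is not settled by these values.

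**Figure D2:**
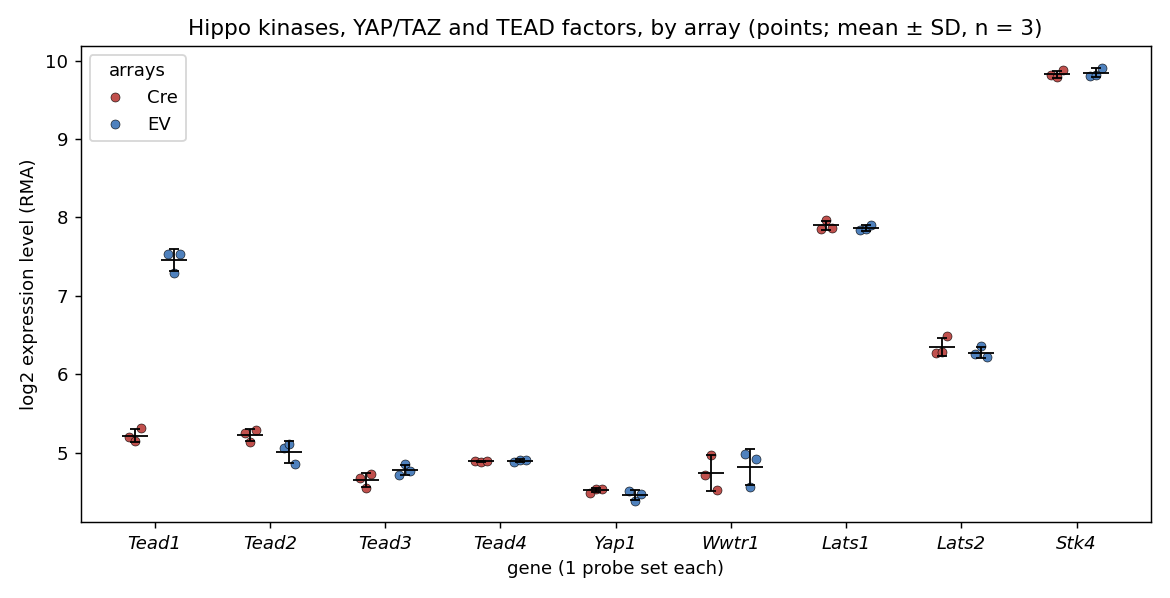
Log2 expression level of the 9 genes on each array, Cre left of EV, with bars for the mean ± SD of 3 arrays. The Tead1 means differ by -2.24 (Cre minus EV), and those of the other 8 genes by between -0.12 and 0.22.

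The TEAD partners were dim too. Yap1, the co-activator that gives the pathway its output, read 4.49, 4.53 and 4.54 in Cre, against 4.52, 4.39 and 4.47 in EV. The groups overlapped, with a difference of 0.06 (95% interval -0.09 to 0.21), and 5.21% of the receptor probe sets were as bright. Wwtr1, which encodes the YAP paralogue TAZ, read 4.72, 4.98 and 4.53 in Cre, against 4.98, 4.56 and 4.92 in EV. It had the widest spread of the 9 probe sets within each group, 0.22 in Cre and 0.23 in EV, and its interval (-0.42 to 0.26 around -0.08) was the least informative. As bright as Wwtr1 were 3.06% of the receptor probe sets.

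The kinases stood clear of the background, and no receptor probe set was as bright as Stk4, Lats1 or Lats2. Stk4, the MST1 kinase at the head of the pathway, read 9.82, 9.79 and 9.88 in Cre, against 9.81, 9.81 and 9.91 in EV. These overlapped almost wholly, with a difference of -0.02 (95% interval -0.17 to 0.13). Lats1, which phosphorylates YAP and TAZ, read 7.85, 7.97 and 7.87 in Cre, against 7.835, 7.85 and 7.91 in EV, a difference of 0.03 (95% interval -0.12 to 0.19). Lats2, its paralogue and itself a YAP target, read 6.27, 6.29 and 6.49 in Cre, against 6.26, 6.36 and 6.22 in EV. Its groups overlapped as well, and the difference was 0.07 (95% interval -0.12 to 0.26).

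**Figure D3:**
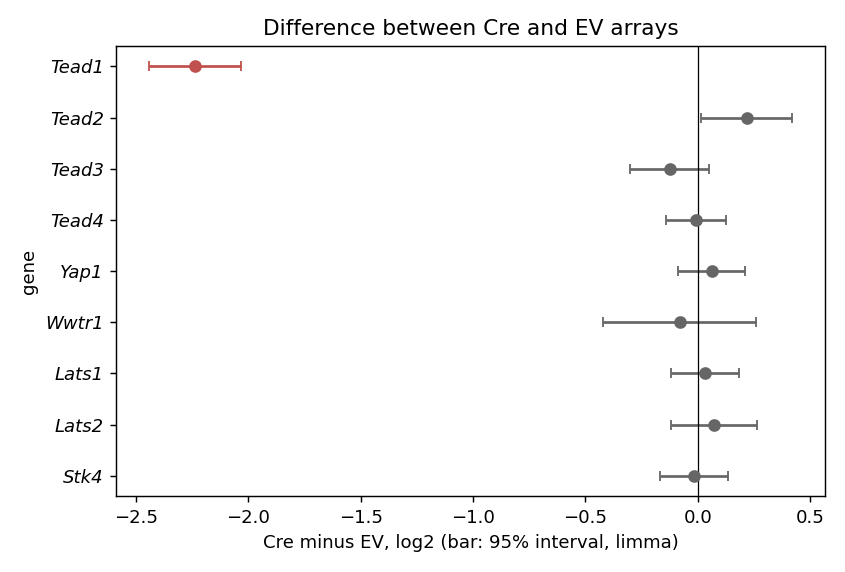
Cre minus EV on the log2 scale for each gene, with the 95% interval of limma's fit over all 19733 genes. Tead1 lies at -2.24, Tead2 at 0.22 with an interval that starts at 0.02, and the intervals of the other 7 genes include 0.

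Beyond these 10 genes, 9 lists of other pathway genes held 109 distinct genes, of which 104 were measured. Of the 104, 2 rose (Map4k1 and Dock8), 1 fell (Wwc2) and 101 did not pass, against 1.35% of all genes higher and 2.14% lower in Cre. At an unadjusted p below 0.05, 6 of the 104 were higher and 9 lower, against 7.10% of all genes higher and 9.02% lower, so these counts are near the background. The unadjusted counts given for each list are to be read against the same shares. The median Cre minus EV of the 104 genes was 0.005. The groups did not overlap for 27 of the 104, against 22.5% of all genes. Most of these were in the lists of YAP retention and degradation (7 of 13), lymphocyte MST1 effectors (6 of 12) and junction and polarity genes (5 of 19). Whether any list differs from the share over all genes was not tested.

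Among adaptors of the core kinases, 1 of 8 measured genes fell and 7 did not pass, with a list median of -0.06. Wwc2, a relative of the scaffold KIBRA that activates LATS, read 5.67, 5.75 and 5.40 in Cre, against 6.33, 6.16 and 6.13 in EV. The groups did not overlap, and Wwc2 fell, with Cre minus EV at -0.60 (SE 0.10; limma adjusted p = 0.0237), or 1.51-fold lower. Its call was lost without Cre replicate 1 (adjusted p = 0.0631 in limma), EV replicate 1 (0.0847), EV replicate 2 (0.0709) or EV replicate 3 (0.0567). Stk38, the NDR kinase that MST1 also acts on, was second by p value, at a difference of -0.09 (SE 0.07; adjusted p = 0.588).

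Among kinases that act in parallel to or above MST, 1 of 8 measured genes rose and 7 did not pass, with a list median of 0.05. Map4k1 (HPK1), a MAP4K kinase of blood cells that restrains antigen receptor signalling, read 8.53, 8.48 and 8.45 in Cre, against 8.03, 8.03 and 8.08 in EV. All Cre arrays were the higher, and Map4k1 rose by 0.44 (SE 0.06; limma adjusted p = 0.00866), or 1.36-fold. Taok3, of the TAO family that phosphorylates MST kinases, differed by 0.15 (SE 0.06; adjusted p = 0.264).

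In the lymphocyte arm of MST1, with its adhesion and migration effectors, 1 of 12 measured genes rose and 11 did not pass, with a list median of 0.07. Dock8, a guanine nucleotide exchange factor for Cdc42 that lymphocytes need to migrate, read 8.08, 7.99 and 8.145 in Cre, against 7.67, 7.65 and 7.63 in EV. The groups did not overlap, and Dock8 rose by 0.42 (SE 0.07; limma adjusted p = 0.0148), or 1.34-fold. The call was lost without Cre replicate 1 (adjusted p = 0.062 in limma), Cre replicate 3 (0.0577), EV replicate 1 (0.0541), EV replicate 2 (0.0562) or EV replicate 3 (0.057). Itgb2, the beta chain of the integrin LFA-1, differed by 0.16 (SE 0.07; adjusted p = 0.339).

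None of 9 RASSF and LIM domain regulators passed in limma, and none did at an unadjusted p below 0.05. Rassf4 differed by 0.16 (SE 0.07; adjusted p = 0.339) and Rassf5, the MST1 partner of lymphocytes, by -0.11 (SE 0.07; adjusted p = 0.465). None of 19 junction and polarity genes passed, and 2 were lower at an unadjusted p below 0.05, where 9.02% of all genes were. These were the polarity scaffolds Patj, which differed by -0.23 (SE 0.07; adjusted p = 0.139), and Mpp5 (Pals1), by -0.21 (SE 0.08; adjusted p = 0.230). Of 15 measured genes of the STRIPAK complex, Ppp2r1a not among them, none passed and 1 was lower at an unadjusted p below 0.05, the kinase Stk25 (-0.17, SE 0.06; adjusted p = 0.213). Mob4, the next in that list, differed by 0.11 (SE 0.08; adjusted p = 0.555).

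None of 13 genes in the list of YAP retention and degradation, which also held the kinases Src and Yes1, passed in limma. At an unadjusted p below 0.05, 2 were higher and 3 lower. Csnk1e, a casein kinase that marks YAP for degradation, differed by -0.22 (SE 0.07; adjusted p = 0.145), and Ywhab, a 14-3-3 protein of the family that holds phosphorylated YAP in the cytoplasm, by 0.19 (SE 0.07; adjusted p = 0.208). None of the 4 Vgll genes, which compete with YAP for TEAD factors or modify their output, passed, with 1 lower at an unadjusted p below 0.05. Vgll3 differed by -0.215 (SE 0.08; adjusted p = 0.238) and Vgll2 by 0.11 (SE 0.08; adjusted p = 0.605). Vgll4, the TEAD repressor, differed by -0.01 (SE 0.06).

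**Figure D4:**
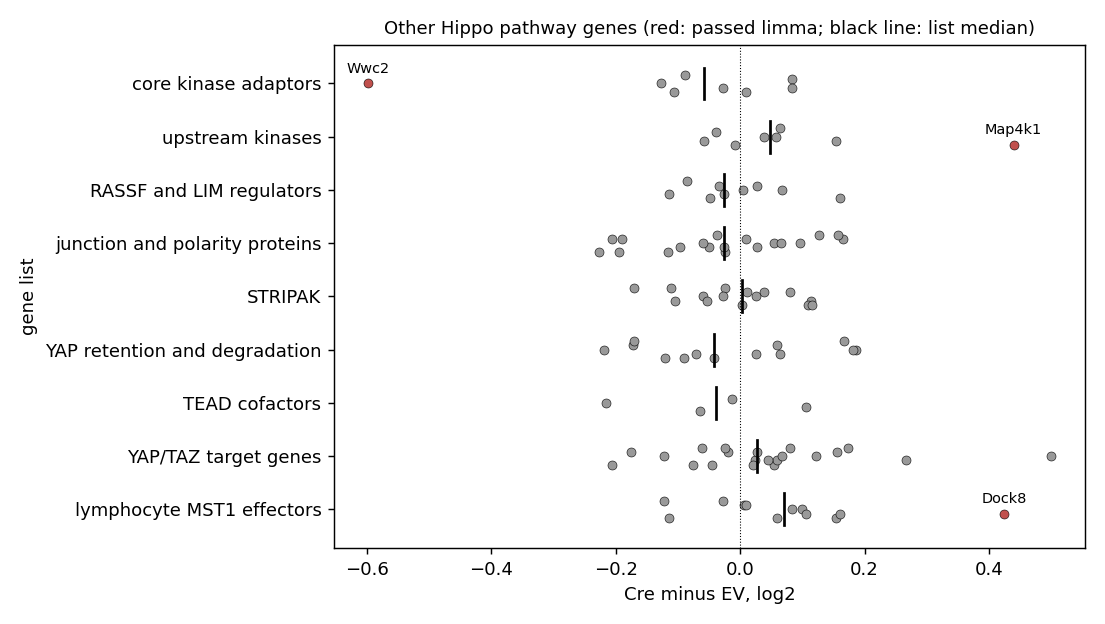
Cre minus EV on the log2 scale for every measured gene of the 9 other pathway lists, as points, with a black line at each list's median. Wwc2 at -0.60, Map4k1 at 0.44 and Dock8 at 0.42 are the genes that passed, in red, and the list medians lie between -0.06 and 0.07.

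The last list held genes that YAP and TAZ switch on through TEAD factors in epithelial and other adherent cells. Of 21 measured targets none passed in limma, with 1 higher and 1 lower at an unadjusted p below 0.05, 13 positive differences and a median of 0.03. Foxf2, a forkhead factor, read 6.64, 6.55 and 6.11 in Cre, against 5.995, 5.91 and 5.89 in EV, a difference of 0.50 (SE 0.13; adjusted p = 0.1055). Without Cre replicate 3, its lowest Cre array, the difference was 0.66 and passed (limma adjusted p = 0.0104). On all arrays Foxf2 passed with the lowest 50% of genes left out (limma adjusted p = 0.0338) and with limma's trend and robust settings (0.01855). It did not pass in the other 5 fits without an array or in 6 of 8 alternatives. Crim1, a transmembrane protein that binds bone morphogenetic proteins, read 7.15, 7.055 and 7.11 in Cre, against 7.27, 7.365 and 7.20 in EV, a difference of -0.18 (SE 0.07; adjusted p = 0.269). Foxf2 and Crim1 thus lay on opposite sides. Their groups did not overlap, which held for 3 of the 21 targets, with Ccn2 as the third, and for 22.5% of all genes.

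The best known targets were dim in both groups. Ccn1 (CYR61), a matrix protein, averaged 4.50 ± 0.12 in Cre and 4.48 ± 0.15 in EV (SD, n = 3 each). Its relative Ccn2 (CTGF) averaged 5.09 ± 0.06 in Cre and 4.97 ± 0.07 in EV, and Ankrd1, a muscle ankyrin repeat protein, 3.88 ± 0.09 in Cre and 3.82 ± 0.17 in EV. As many as 17.2% of the receptor probe sets were as bright as Ankrd1, 5.29% as bright as Ccn1 and 1.74% as bright as Ccn2. At such levels a decrease would be hard to see, so these probe sets say little about TEAD output in either group. Other targets were brighter. No receptor probe set was as bright as Asap1, Gadd45a or Crim1, whose Cre minus EV differences were -0.02, 0.155 and -0.18.

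The core of the TEAD binding element, GGAATG or CATTCC on the other strand, was counted in RefSeq promoter windows (GRCm38.p6), which run from 250 bases before to 50 bases after an annotated start. It was present for 16.6% of all 27025 genes with a window. It was present for 6 of the 14 target genes with a window and for 4 of the 7 Hippo and TEAD genes with a window, namely Yap1, Wwtr1, Lats2 and Tead3. A gene with several windows was counted if any of them held the core. For Lats2 and Tead3 not every window did, and the Lats2 match lay 4 bases after a start. Tead1, Tead4 and Stk3 had no window. Among the other lists it was present for 3 of 8 core adaptors, 0 of 6 upstream kinases, 3 of 7 RASSF and LIM regulators, 4 of 13 junction and polarity genes, 1 of 12 STRIPAK genes, 0 of 9 genes of YAP retention and degradation, 3 of 4 Vgll genes and 2 of 8 lymphocyte MST1 effectors. Of the 3 genes that passed, Map4k1 and Dock8 held 0 copies, and Wwc2 held 3, at 203, 94 and 79 bases before the start. Ppp2r1a, which was lower in Cre, also held 0. Yap1 held 1 at 141 bases, Ccn1 1 at 103 bases and Ankrd1 2 at 210 and 123 bases before the start. The 250 bases before these starts are shown 5′ to 3′ on the gene's strand, as the core adaptor that passed, the pathway's co-activator and a pair of textbook targets, with the core in capitals.
Wwc2 (chr8:47990545-47990794, minus strand): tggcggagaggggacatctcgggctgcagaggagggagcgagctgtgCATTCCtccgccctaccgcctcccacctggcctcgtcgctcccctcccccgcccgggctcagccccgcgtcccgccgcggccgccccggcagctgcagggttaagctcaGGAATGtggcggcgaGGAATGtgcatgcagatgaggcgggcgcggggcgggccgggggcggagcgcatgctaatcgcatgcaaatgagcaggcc
Yap1 (chr9:8004597-8004846, minus strand): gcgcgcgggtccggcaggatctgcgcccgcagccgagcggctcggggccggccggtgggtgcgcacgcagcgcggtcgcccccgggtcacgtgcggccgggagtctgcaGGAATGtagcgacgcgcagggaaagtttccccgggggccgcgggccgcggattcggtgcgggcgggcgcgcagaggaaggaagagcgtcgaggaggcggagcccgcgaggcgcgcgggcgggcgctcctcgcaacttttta
Ccn1 (chr3:145649986-145650235, minus strand): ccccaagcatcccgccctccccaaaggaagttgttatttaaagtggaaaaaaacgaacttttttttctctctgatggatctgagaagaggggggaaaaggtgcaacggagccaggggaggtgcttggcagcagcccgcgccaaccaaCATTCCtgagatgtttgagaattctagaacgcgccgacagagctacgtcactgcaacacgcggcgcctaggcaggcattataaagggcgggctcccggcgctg
Ankrd1 (chr19:36119845-36120094, minus strand): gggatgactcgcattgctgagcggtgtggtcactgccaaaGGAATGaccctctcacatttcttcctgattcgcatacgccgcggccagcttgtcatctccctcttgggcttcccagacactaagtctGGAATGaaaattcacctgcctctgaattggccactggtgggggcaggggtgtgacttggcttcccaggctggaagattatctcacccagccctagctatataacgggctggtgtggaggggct
A match shows where the letters occur. Binding was not measured, and whether a match goes with a change in level was not tested.

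TEAD factors and YAP are well expressed in stromal and endothelial cells, so markers of these and of other cell types were examined beside Tead1. None of 12 stromal markers passed in limma, with 2 lower at an unadjusted p below 0.05, and their summed linear level was 279 to 298 in Cre and 288.5 to 304 in EV. The sum over 5 endothelial markers was 201 to 219 in Cre and 171 to 185 in EV, with none passed and 1 higher, Pecam1, at an unadjusted p below 0.05. Pecam1 averaged 7.24 in Cre and 6.95 in EV and was much the brightest of the 5, so this sum mostly follows that 1 gene. That over 8 myeloid markers was 168 to 178 in Cre and 184 to 188.5 in EV, with none passed and 1 higher and 1 lower at an unadjusted p below 0.05. The sum over 6 of 7 T cell markers was 165 to 186 in Cre and 135 to 144 in EV, where Cd28 rose by 1.20 (limma adjusted p = 0.001725) and the other 5 did not pass. Cd28 averaged 6.08 in Cre and 4.88 in EV, and the higher T cell sum in Cre went with that 1 gene. The median over the T cell list was -0.01, and 2 of the 6 differences were positive. Over 3 of 6 erythroid markers the sum was 68.1 to 81.9 in Cre and 71.3 to 84.2 in EV. Over the 12 pre-B markers it was 24290 to 24820 in Cre and 24970 to 25690 in EV. Rag1, Rag2 and Dntt, of V(D)J recombination, fell in limma, and the other 9 did not pass. Of the 12, 5 had positive differences, and 1 was higher and 4 were lower at an unadjusted p below 0.05.

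Over both groups, 6 of 12 stromal, 1 of 5 endothelial (Pecam1), 1 of 8 myeloid (Cd68), 3 of 6 T cell and 2 of 3 erythroid markers lay above the 95th percentile of the receptor probe sets, 4.51. The stromal genes above it included Col1a1, at 5.75 in Cre and 5.75 in EV, while Lum, at 2.55 in Cre and 2.56 in EV, lay below the receptor median. The lower myeloid sum in Cre went with Cd68, a lysosomal protein of macrophages, which averaged 6.10 in Cre and 6.46 in EV (limma adjusted p = 0.0637). The other 7 of the 8 myeloid markers had positive differences, and the list median was 0.08, but all 7 lay below that 95th percentile, where signs say little. The part of any of these markers in the Tead1 difference was not tested.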

How the data were processed

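Biotin-labelled cRNA of 6 samples was put on 1-colour Affymetrix arrays, as the labels' protocols state, and samples were grouped by title (3 Cre, 3 EV). The deposited values are log2 levels made with RMA (background correction, quantile normalization, probe summary), per the submitters' processing notes, with version and build not given in the sources used here.

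Of 25006 probe sets, 21467 had 1 gene symbol in the platform annotation, which left 19733 genes at 1 probe set each. Cre was compared with EV in limma 3.58.1 (R 4.3.3; lmFit and eBayes, no block, no filter), adjusted over all genes, called at 0.05. The script was tested on simulated data. Python 3.11.15, pandas 2.3.3 and matplotlib 3.10.9 were used. The number of arrays limits the precision.

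Members, lists and tests were chosen with earlier results of these data known. Named genes are Ppp2r1a, the members, up to 4 called genes per list by p (otherwise the 2 with the smallest p), and the 3 nearest to Tead1. Vgll4, Ccn1, Ccn2, Ankrd1, Asap1, Gadd45a and the marker genes were named after their values were seen. Alternatives were a replicate block, other scaling, filters, variance models, the mean of probe sets and leaving out each array.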

Additional observations from a re-analysis of the deposited data

How the results depend on the processing

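Tead1 was called lower in Cre, and the other 8 Hippo and TEAD genes were not called, under all 8 alternatives that kept the gene and in all 6 fits that left out 1 array. Since Tead1's decrease was known when the set was made, these calls describe the fits and add no support for it. Tead1's difference ran from -2.32 to -2.20 with an array left out and was -1.94 with the mean of both probe sets. Leaving out the lowest 50% of genes kept 4 of the 9 genes. That filter used the mean of 6 arrays, which for Tead1 rests on its EV level (7.46, against 5.22 in Cre). Counts over all genes moved more. With the replicate block 157 genes were higher and 268 lower, with the lowest 50% left out 537 and 758, with trend and robust settings 640 and 918, and with ordinary t statistics 64 and 84. With 1 array left out, 138 to 169 were higher and 215 to 270 lower. Among the 104 pathway genes, 1 was higher with the block or ordinary t statistics (Map4k1). Higher were 3 with the lowest 50% left out (Map4k1, Dock8 and Foxf2) and 5 with trend and robust settings (Map4k1, Dock8, Foxf2, Ywhab and Ywhaz). Lower were 3 with the lowest 50% left out (Wwc2, Patj and Csnk1e) and 0 with ordinary t statistics. With an array left out 1 to 2 were higher and 0 to 1 lower. Same-numbered Cre and EV arrays had deviations from their group means correlated at 0.01, -0.01 and 0.03. Arrays of unlike number had correlations of -0.03 to 0.02. No pairing by repeat number was thus seen, which does not show that the repeats were unpaired, and the labels do not say. The block result for Dock8 was an adjusted p of 0.0587 in limma. The dim TEAD, Yap1 and Wwtr1 probe sets limit what can be seen.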
